A study of Mus musculus with 6 samples.

Results

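The 36 genes described here are markers of microglia and of the wider myeloid lineage, among the 55341 genes counted in mouse cerebellar granule neuron (CGN) cultures. They were chosen by name from a list, with earlier results of these data known. Of the 36 genes, 34 passed the filter on low counts, which kept 16343 genes in all. Trem2, a lipid-sensing receptor of microglia, and Siglech, a sialic acid-binding receptor, were listed at 0 counts in all 6 libraries, where a floor of 3 counts corresponds to 0.249 to 0.374 counts per 1000000 (CPM) depending on the library. This floor covers counting error only, and whether these zeros come from the RNA or from the annotation and counting cannot be told apart. RNA-seq was done on CGN cultures given the vehicle DMSO (n = 3) or GSK-126 (n = 3), an inhibitor of EZH2, the enzyme that methylates lysine 27 of histone H3. The labels give the agent and a replicate number, with no dose, day, strain or age. The study's methods describe CD1-IGS pups of both sexes in the early postnatal period, granule neuron precursors isolated on a Percoll gradient, and cytosine arabinoside in every culture to stop the division of non-neuronal cells. The source is given as cerebellum although the titles name CGNs.

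Microglia are the resident macrophages of the brain, and they are maintained by signals through the receptor CSF1R under the lineage transcription factors PU.1 and IRF8. They take up debris and synapses through Fc and complement receptors, degrade the cargo in lysosomes, and produce the chains of complement C1q. Neuron-enriched primary cultures can carry such cells from the dissected tissue. EZH2 places the repressive mark H3K27me3 on promoters, also in myeloid cells.

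In each of the 3 replicate pairs the summed level of the microglia and myeloid genes was higher with GSK-126. The sum was 1807, 1586 and 3312 CPM in DMSO replicates 1, 2 and 3, and 3604, 2215 and 4298 CPM in GSK-126 replicates 1, 2 and 3. The groups overlapped, since DMSO replicate 3 lay above GSK-126 replicate 2. The ratio of GSK-126 to DMSO was 2.00 in pair 1, 1.40 in pair 2 and 1.30 in pair 3, and the group means were 2235 ± 939 and 3372 ± 1061 CPM (SD, n = 3 each). The ratio of the means was 1.51, and 1.99 without DMSO replicate 3. Together the genes took 0.158 to 0.333% of the gene counts with DMSO and 0.220 to 0.427% with GSK-126. Lysozyme 2 (Lyz2) was the largest contributor, and without it the ratio of the means was 1.48. In bulk RNA, more or fewer microglia and more or less RNA per microglial cell cannot be told apart.

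Scaled to length, mean levels over all 6 libraries ran from 1.18 RPKM (CPM per kilobase of exon) for the nucleotide receptor P2ry13 to 716 RPKM for Lyz2. Behind Lyz2 came C1qa at 131 RPKM, Cd68 at 95.7 RPKM and C1qb at 85.7 RPKM. The microglial marker genes Cx3cr1, Tmem119 and P2ry12 were detected in every library, at 7.01, 5.32 and 1.42 RPKM. Levels of the adaptor Tyrobp reached 56.5 RPKM although its receptor partner Trem2 was listed at 0. Other genes at 0 counts in all libraries included the mitotic motor Kif11, while the other 9 of 10 cell cycle genes on a list of such genes had reads. The plot of levels by library shows how widely the replicates of 1 group were spread.

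**Figure D1:**
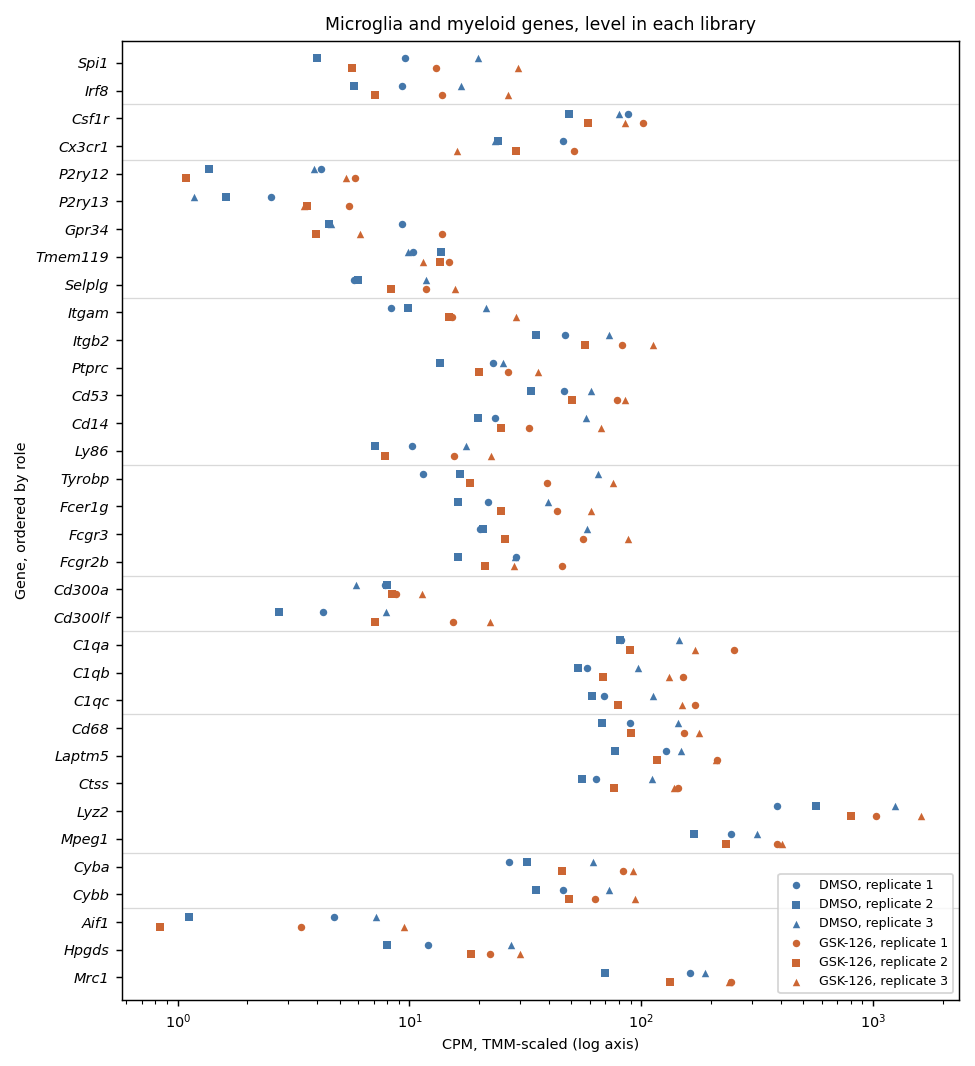
Level of each of the 34 genes that passed the filter, in CPM on a log axis, in each of the 6 libraries, with genes grouped by role between grey lines. Blue symbols are DMSO and orange symbols are GSK-126, and the symbol shape gives the replicate number. Replicate 2, the squares, lies lowest for 24 genes with DMSO and for 31 with GSK-126.

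The spread between replicates was wide for these genes. Their median coefficient of variation was 42.3% with DMSO and 36.1% with GSK-126, beside 16.2% and 15.9% for the 14296 genes tested that lay in the same range of mean CPM. With DMSO, replicate 3 was highest for 26 of 34 genes and replicate 2 lowest for 24. With GSK-126, replicate 2 was lowest for 31 of 34, and the highest library was replicate 3 for 21 genes and replicate 1 for 13. Among all genes tested, DMSO replicate 3 was highest for 31.4% and GSK-126 replicate 2 lowest for 39.1%. The deviations of the 34 genes from their group means correlated by 0.57, 0.76 and 0.82 between libraries of the same number 1, 2 and 3, a description over genes of shared libraries.

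Proportions between the genes were not fixed across libraries. The C1q chains C1qc and C1qb kept nearly fixed proportions, with 1.13 to 1.18 counts of C1qc for each count of C1qb in the 6 libraries. C1qa varied more, with 1.28 to 1.66 counts for each count of C1qb. By contrast, the counts of Lyz2 for each count of Cx3cr1, a chemokine receptor, were 8.39, 23.5 and 53.5 in DMSO replicates 1 to 3 and 20, 27.8 and 101 in GSK-126 replicates 1 to 3. Tyrobp over Cx3cr1 was 0.249, 0.684 and 2.80 with DMSO, and 0.758, 0.631 and 4.72 with GSK-126. Replicate 3 had the highest value of both ratios in both groups.

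The test across all 16343 genes depended on the replicate number. Without it as a term, 0 of 34 genes were called in either direction at an adjusted p under 0.05 (quasi-likelihood test of edgeR, Benjamini-Hochberg adjustment), beside 0% of all genes, and adjusted p-values of the 34 ran from 0.806 to 0.993. DESeq2 without the block also called 0 of them, beside 0.176% of the genes it tested that it called higher, and limma called 0. At an unadjusted edgeR p under 0.05 there were 5, namely P2ry13, Cd53, Cd300lf, C1qb and Cyba, beside 6% of all genes. The replicate numbers were taken to pair the libraries, which the labels do not state. When the replicate number entered as a block, 14 genes were called higher, beside 2.23% of all genes. In the same fit 0 were called lower, beside 1.42%, and 20 were not called. At an unadjusted p under 0.05 in that fit there were 25, the 14 and 11 more, all higher with GSK-126, beside 9.28% of all genes. Unless stated otherwise, the log2 fold changes (GSK-126 over DMSO) and edgeR adjusted p-values that follow are from the fit with this block, and counts are given in the order of replicates 1, 2 and 3. DESeq2 with the block called 13 higher, beside 3.08% of the 12878 genes it tested, and 0 lower, beside 2.03%.

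Fitted changes were mostly positive whether or not a gene was called. With the block, 32 of 34 log2 fold changes were above 0, beside 49.6% of all genes, and their median was 0.61, against 0.00 for all genes tested. The log2 ratio was above 0 in all 3 pairs for 28 of the 34 genes, beside 19.7% of all genes, and below 0 in all 3 for 0 genes, beside 19.3%. In only 2 genes, P2ry13 and Cd300a, did all GSK-126 libraries lie above all DMSO libraries, beside 5.43% of all genes, and for 0 did they all lie below, beside 5.44%. Calls were unevenly spread over levels, with 1 of 13 genes called higher below a mean of 20 CPM, beside 0.84% of all genes at that level, and 13 of 21 at or above it, beside 3.35%. Pair 1, which holds the deepest library, GSK-126 replicate 1, gave the largest of the 3 ratios for 24 genes.

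**Figure D2:**
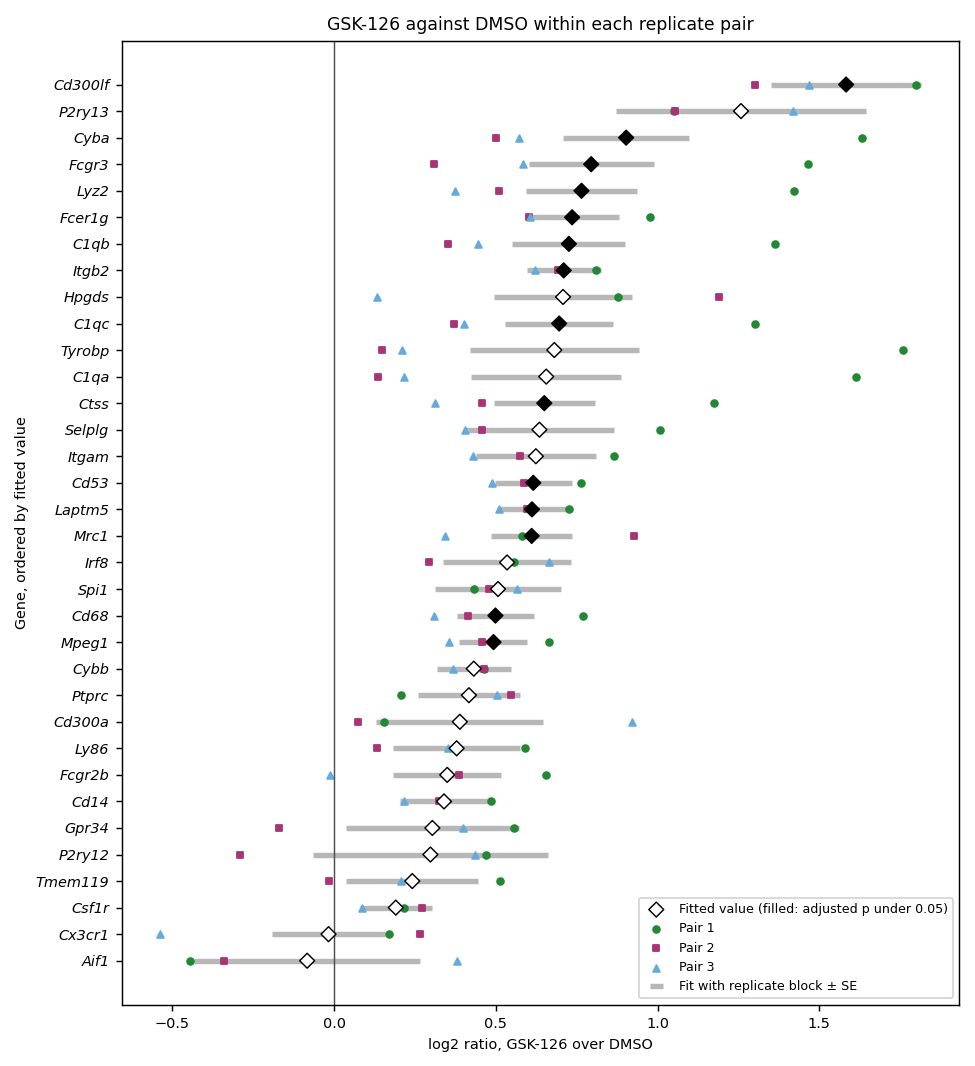
log2 ratio of GSK-126 over DMSO for the 34 genes within each replicate pair (coloured symbols) and the value fitted with the replicate block (diamonds, grey bars ± SE), ordered by fitted value. Filled diamonds mark the 14 genes with an edgeR adjusted p under 0.05, of which Cd300lf has the largest value at 1.58.

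The lineage transcription factors, both below a mean of 20 CPM, where 0.84% of all genes were called higher, were not called. Spi1, which encodes PU.1, had 83, 32 and 168 counts under DMSO and 156, 47 and 259 under GSK-126. Both groups ran from low in replicate 2 to high in replicate 3 and overlapped widely. The log2 fold change was 0.51 (SE 0.194, adjusted p 0.211 by edgeR), and Irf8, the partner of PU.1 in microglia, had 0.53 (SE 0.198, adjusted p 0.194). The Spi1 log2 ratios were 0.43, 0.48 and 0.57 in pairs 1, 2 and 3. With the block, leaving out replicate number 1, 2 or 3 gave Spi1 values of 0.55, 0.52 and 0.47. Without the block, leaving out GSK-126 replicate 3 alone, with its DMSO partner kept, turned the Spi1 value to -0.25.

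PU.1 binds purine-rich motifs around the letters GAGGAA, and promoters of the genes were searched for these letters because PU.1 is the factor that defines the lineage. RefSeq promoter windows (GRCm38) were matched by symbol for 27 of the 36 genes, all but Spi1, Csf1r, Gpr34, Tmem119, Selplg, Itgb2, Cd14, Tyrobp and C1qa. Of their 30 windows 27 ran on into a GENCODE transcript of the gene, all but those of P2ry12, C1qb and Cd68. GAGGAA or its reverse complement TTCCTC occurred in the 250 bases before the start of 16 of the 27 (59.3%), beside 25.9% of 27025 genes with a window. The longer GAGGAAGT or ACTTCCTC, which overlaps the shorter motif, occurred for 2 of 27 (7.41%; C1qc and Hpgds), beside 2.79%. The promoters shown are those of both CD300 receptors and of the called genes Cd53 and Ctss, 5′ to 3′ on the strand of the gene with the matched letters in capitals:
Cd300lf, chr11:115133993-115134242, minus strand: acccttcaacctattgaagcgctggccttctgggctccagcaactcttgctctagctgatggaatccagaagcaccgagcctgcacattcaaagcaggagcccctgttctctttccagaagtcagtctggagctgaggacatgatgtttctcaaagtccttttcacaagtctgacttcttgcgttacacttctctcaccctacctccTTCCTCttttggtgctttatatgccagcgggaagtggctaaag
Cd300a, chr11:114889791-114890040, plus strand: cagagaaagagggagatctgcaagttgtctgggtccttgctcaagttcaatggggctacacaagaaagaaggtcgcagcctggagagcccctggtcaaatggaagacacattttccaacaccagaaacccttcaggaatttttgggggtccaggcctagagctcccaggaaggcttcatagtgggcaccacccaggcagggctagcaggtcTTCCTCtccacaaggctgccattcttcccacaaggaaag
Cd53, chr3:106790150-106790399, minus strand: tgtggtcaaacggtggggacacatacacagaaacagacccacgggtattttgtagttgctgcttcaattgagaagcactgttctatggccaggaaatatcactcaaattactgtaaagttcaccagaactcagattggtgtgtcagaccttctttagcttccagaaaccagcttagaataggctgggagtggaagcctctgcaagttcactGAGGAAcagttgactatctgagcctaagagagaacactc
Ctss, chr3:95526536-95526785, plus strand: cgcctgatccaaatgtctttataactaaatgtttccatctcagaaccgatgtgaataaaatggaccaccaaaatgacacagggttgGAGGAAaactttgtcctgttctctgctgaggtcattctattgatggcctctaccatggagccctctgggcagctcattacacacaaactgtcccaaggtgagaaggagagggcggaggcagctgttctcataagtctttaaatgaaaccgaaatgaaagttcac
The match begins 43, 39, 39 and 164 bases before the start, in that order. All promoters shown hold a match, whereas the windows of the called genes Fcer1g, Lyz2, Mpeg1 and Cyba hold none. Whether a match goes with a call was not tested. A match is a description of these letters and not a measured binding site.

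The growth factor and chemokine receptors had the smallest median change of the 10 role groups, at 0.09. Csf1r, the receptor for the microglial growth factors CSF1 and IL-34, had 764, 391 and 680 counts under DMSO and 1229, 490 and 750 under GSK-126. In CPM the groups overlapped, and the log2 fold change was 0.19 (SE 0.111, adjusted p 0.429 by edgeR). A part of its exons, 15.1%, overlaps Hmgxb3 on the opposite strand, and the strand setting of the count is not given in the sources used here. Cx3cr1, the receptor for the neuronal chemokine CX3CL1, was higher in pairs 1 and 2 and lower in pair 3 (log2 ratios 0.17, 0.27 and -0.54), with a fitted value of -0.02 (SE 0.174, adjusted p 0.978).

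Surface receptors of homeostatic microglia were likewise not called, in 0 of 5 that passed the filter. All 5 had means below 20 CPM, where 0.84% of all genes were called higher. Their fitted values were all above 0, with a median of 0.30. Tmem119, a membrane protein used as a marker of microglia, had 90, 110 and 84 counts under DMSO and 179, 113 and 101 under GSK-126. Its log2 fold change was 0.24 (SE 0.205, adjusted p 0.621 by edgeR), and its pair 2 ratio was slightly negative at -0.01. The purinergic receptors P2ry12 and P2ry13, neighbours on chromosome 3, differed in value. P2ry12 had 36, 11 and 33 counts under DMSO and 70, 9 and 47 under GSK-126 (log2 fold change 0.30, SE 0.363, adjusted p 0.755). P2ry13 had 22, 13 and 10 counts under DMSO and 66, 30 and 31 under GSK-126. All 3 GSK-126 libraries lay above all 3 DMSO libraries in CPM, and the log2 fold change of 1.26 (SE 0.387) missed the threshold with an edgeR adjusted p of 0.116. The lysophospholipid receptor Gpr34 and the selectin ligand Selplg had log2 fold changes of 0.30 and 0.64. The difference between P2ry12 and P2ry13 was not tested.

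Among integrins and leukocyte surface proteins, Itgb2 and Cd53 rose and the other 4 were not called. Itgb2, the beta chain of the complement receptor CR3, had 409, 282 and 618 counts under DMSO and 995, 474 and 987 under GSK-126. The groups overlapped, with DMSO replicate 3 above GSK-126 replicate 2, but the gene was higher with GSK-126 in every pair by a similar step (log2 ratios 0.81, 0.69 and 0.62), and the fitted log2 fold change was 0.71 (SE 0.114, adjusted p 0.00846 by edgeR). Its alpha partner Itgam had a similar value, 0.62 (SE 0.185), without reaching the threshold (adjusted p 0.102), and 68.7% of its exons overlap another annotated gene on the same strand, and how reads over both were assigned is not given in the sources used here. The tetraspanin gene Cd53 had 402, 267 and 515 counts under DMSO and 948, 417 and 750 under GSK-126 (log2 fold change 0.62, SE 0.120, adjusted p 0.0181 by edgeR). Here too DMSO replicate 3 lay above GSK-126 replicate 2. Ptprc, the phosphatase CD45, Cd14, the lipopolysaccharide co-receptor, and Ly86, a partner of a Toll-like receptor family member, had values from 0.34 to 0.42 and were higher in all 3 pairs without being called.

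Fc receptors and their adaptors were partly called. Fcer1g, the common signalling chain of activating Fc receptors, had 190, 130 and 336 counts under DMSO and 520, 206 and 532 under GSK-126 (log2 fold change 0.74, SE 0.145, adjusted p 0.0199 by edgeR). Fcgr3, an activating IgG receptor that signals through this chain, had 175, 167 and 497 counts under DMSO and 673, 215 and 774 under GSK-126. Pair 1 held the largest step for both, both groups overlapped through the low GSK-126 replicate 2, and Fcgr3 was just past the threshold (log2 fold change 0.80, SE 0.194, adjusted p 0.0474). The inhibitory IgG receptor Fcgr2b, a neighbour on chromosome 1, had 0.35 (SE 0.167, adjusted p 0.325) and a ratio of -0.01 in pair 3. Tyrobp, the adaptor of TREM2 and CD300 family receptors, had 99, 132 and 554 counts under DMSO and 470, 152 and 665 under GSK-126. Its ratio of 1.76 in pair 1 stood far above 0.15 and 0.21 in pairs 2 and 3, and it was not called (0.68, SE 0.261, adjusted p 0.211).

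The largest change in the list was in Cd300lf, a lipid-binding inhibitory receptor of myeloid cells (GRCm38 chromosome 11, 115116214 to 115133992, minus strand). It had 37, 22 and 67 counts under DMSO and 185, 59 and 196 under GSK-126. The log2 ratio was 1.80, 1.30 and 1.47 in the 3 pairs, although DMSO replicate 3 lay above GSK-126 replicate 2 in CPM, so the groups overlapped. The fitted log2 fold change was 1.58 (SE 0.233, adjusted p 0.00576 by edgeR), a fold of 3.00. Cd300a, an inhibitory receptor of the same cluster (chromosome 11, 114890041 to 114904654, plus strand), had 68, 64 and 50 counts under DMSO and 105, 70 and 100 under GSK-126 (log2 fold change 0.39, SE 0.258, adjusted p 0.498). For each count of Cd300a there were 0.344 to 1.34 counts of Cd300lf with DMSO and 0.843 to 1.96 with GSK-126.

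Of the 3 complement C1q chains, 2 were called higher, with the largest step in pair 1. The 3 genes lie side by side on chromosome 4 (GRCm38, C1qb from 136880129 to C1qa ending at 136898803). C1qb had 508, 428 and 823 counts under DMSO and 1814, 567 and 1164 under GSK-126, and C1qc had 599, 491 and 958 against 2047, 660 and 1314. GSK-126 replicate 1 was the highest library for both, and GSK-126 replicate 2 lay below DMSO replicate 3. Their log2 fold changes were 0.73 (SE 0.175, adjusted p 0.0459 by edgeR) and 0.70 (SE 0.168, adjusted p 0.0461). C1qa, the other gene of this cluster, had 710, 652 and 1239 counts under DMSO and 3012, 744 and 1495 under GSK-126. Its ratios of 1.61, 0.14 and 0.22 were more uneven, and it was not called (0.66, SE 0.232, adjusted p 0.175).

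Lysosomal and phagocytic genes were all called higher, in 5 of 5. Lyz2, the macrophage lysozyme (GRCm38 chromosome 10, 117277331 to 117282321), had 3339, 4540 and 10587 counts under DMSO and 12405, 6709 and 14233 under GSK-126 (log2 fold change 0.77, SE 0.171, adjusted p 0.0333 by edgeR). Its 3 DMSO libraries differed among themselves by more than this change, and DESeq2 with the block did not call it (adjusted p 0.0923). Laptm5, a lysosomal membrane protein of blood cells, had 1112, 617 and 1256 counts under DMSO and 2549, 969 and 1857 under GSK-126 (0.61, SE 0.106, adjusted p 0.0111 by edgeR). Mpeg1, a pore-forming protein of macrophages, had 2118, 1354 and 2678 counts under DMSO and 4652, 1931 and 3554 under GSK-126 (0.49, SE 0.105, adjusted p 0.0277 by edgeR). Both genes had their largest step in pair 1 and their smallest in pair 3. The log2 ratios were 0.726, 0.596 and 0.510 for Laptm5 and 0.665, 0.458 and 0.354 for Mpeg1. The protease gene Ctss had 556, 446 and 948 counts against 1741, 637 and 1221 (0.65, SE 0.156, adjusted p 0.0450 by edgeR), and the lysosomal glycoprotein gene Cd68 had 779, 542 and 1218 against 1841, 750 and 1567 (0.50, SE 0.120, adjusted p 0.0450 by edgeR). In each of these 5 genes DMSO replicate 3 lay above GSK-126 replicate 2.

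The membrane subunits of the phagocyte NADPH oxidase, which makes superoxide, were both higher with GSK-126 in all 3 pairs, and 1 of the 2 was called. Cyba had 233, 258 and 524 counts under DMSO and 1006, 380 and 810 under GSK-126, with a log2 ratio of 1.63 in pair 1 and 0.50 and 0.57 in pairs 2 and 3. The groups overlapped, since GSK-126 replicate 2 lay below DMSO replicate 3. The fitted value was 0.90 (SE 0.195, adjusted p 0.0295 by edgeR). Cybb, its catalytic partner, had 398, 282 and 617 counts under DMSO and 761, 404 and 827 under GSK-126. Its steps were even (0.46, 0.46 and 0.37) and smaller, and at 0.43 (SE 0.115, adjusted p 0.0672) it was the uncalled gene nearest to the threshold.

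Mrc1, the macrophage mannose receptor, which is more typical of border macrophages than of microglia, had 1413, 559 and 1594 counts under DMSO and 2930, 1104 and 2097 under GSK-126. The groups overlapped, and the gene was higher in every pair, most so in pair 2, with a log2 fold change of 0.61 (SE 0.125, adjusted p 0.0225 by edgeR). Hpgds, the hematopoietic prostaglandin D synthase, had 0.71 (SE 0.215, adjusted p 0.111). Aif1, which encodes the microglial stain IBA1, had 41, 9 and 61 counts under DMSO and 41, 7 and 83 under GSK-126. It was lower with GSK-126 in pairs 1 and 2 and higher in pair 3, and its fitted value of -0.08 (SE 0.349, adjusted p 0.943) was the lowest of the 34.

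**Figure D3:**
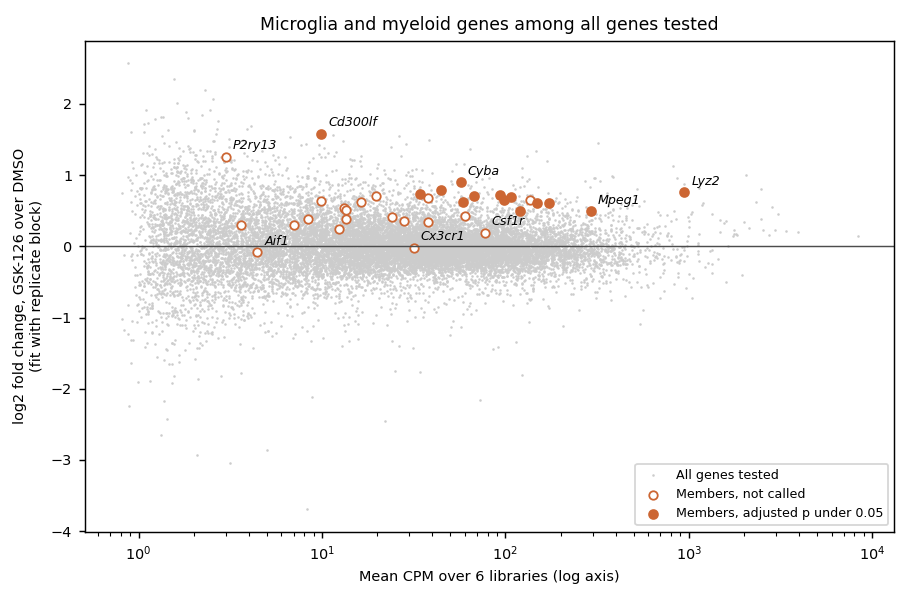
Fitted log2 fold change (GSK-126 over DMSO, with the replicate block) against the mean CPM over 6 libraries on a log axis, for 16343 genes (grey) and the 34 microglia and myeloid genes (orange, filled where the edgeR adjusted p was under 0.05). All but 2 of the 34 lie above 0, and 13 of the 14 filled points lie at a mean of 20 CPM or more.

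The share of each gene in the summed counts of the 36 describes proportions within the myeloid signal. This share was higher with GSK-126 in all 3 pairs for Cd300lf (1.81, 1.85 and 2.17 times), for P2ry13 (1.09, 1.59 and 2.30 times) and for Cyba (1.56, 1.02 and 1.15 times). It was lower in all 3 pairs for 9 genes, among them Cx3cr1 (0.564, 0.862 and 0.529 times), Csf1r (0.582, 0.865 and 0.819 times) and Tmem119 (0.720, 0.709 and 0.893 times). The other 6 were Cd14, Ly86, Fcgr2b, Cd68, Mpeg1 and Cybb, so some genes called higher took a smaller share. These shares were not tested, and the genes of the sum are not independent of each other.

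Calls with the block varied in how far they held. Itgb2, Cd300lf and Cyba were called in 7 of 7 fits with the block, which included DESeq2, other size factors, no filter and each replicate number left out. C1qb, Laptm5 and Mrc1 were called in 6, Cd53, Fcer1g, Fcgr3, C1qc, Ctss, Lyz2 and Mpeg1 in 5, and Cd68 in 4. Without replicate 1 the block left 9 genes called, without replicate 2 it left 5, and without replicate 3 it left 13. Of all genes tested in these fits, 704, 178 and 359 were called in either direction, in that order. Over the 7 fits the edgeR or DESeq2 adjusted p reached at most 0.0150 for Cd300lf, 0.0371 for Itgb2 and 0.0367 for Cyba, and 0.147 for Mrc1.

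Further genes of the pathway were read from the same fit, in which 2.23% of all genes were called higher and 1.42% lower. Of 26 further microglial genes that passed the filter, 3 were called higher with the block and 0 lower, with a median of 0.42. Among them were Mertk, a receptor for apoptotic cells (0.93, SE 0.171, adjusted p 0.0143 by edgeR), and Havcr2, a checkpoint receptor (0.78, SE 0.177, adjusted p 0.0358). Of 18 myeloid signalling and cytoskeletal genes 2 were called higher, the actin bundler Lcp1 at 0.70 and the actin regulator Nckap1l at 0.55. Among 7 ligands of the receptors, Tgfb1, which maintains microglial identity, was called higher (0.71, SE 0.131, adjusted p 0.0143 by edgeR). The CSF1R ligand Csf1 had 0.36 (adjusted p 0.0920), Il34 had -0.14 (adjusted p 0.766) and the CX3CR1 ligand Cx3cl1 had 0.48 (adjusted p 0.122). These 3 lay outside the naming rule and were named after their values were seen.

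Genes that activated or disease-associated microglia express had the largest median of the lists read from this fit. Of 14 that passed the filter 12 were called higher, beside 2.23% of all genes, and 0 lower, beside 1.42%. Their median was 1.08. In 5 of the 14 genes all GSK-126 libraries lay above all DMSO libraries, beside 5.43% of all genes. Gpnmb, a membrane glycoprotein, had 4382, 3306 and 5318 counts under DMSO and 13956, 6819 and 12586 under GSK-126 (1.13, SE 0.0999, adjusted p 0.000435 by edgeR). Its groups did not overlap in counts. Lpl, a lipase, and Spp1, osteopontin, had 0.96 and 1.00, the chemokine Ccl3 had 1.27, the integrin Itgax had 1.07 and the galectin Lgals3 had 1.09, all called. The summed level of the 16 genes of the list was 4463, 4532 and 7027 CPM with DMSO and 9699, 7207 and 11270 CPM with GSK-126. Every GSK-126 library lay above every DMSO library, though GSK-126 replicate 2 was close to DMSO replicate 3. Many of these genes are also expressed by other cells, for which the cell types were not separated here.

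**Figure D4:**
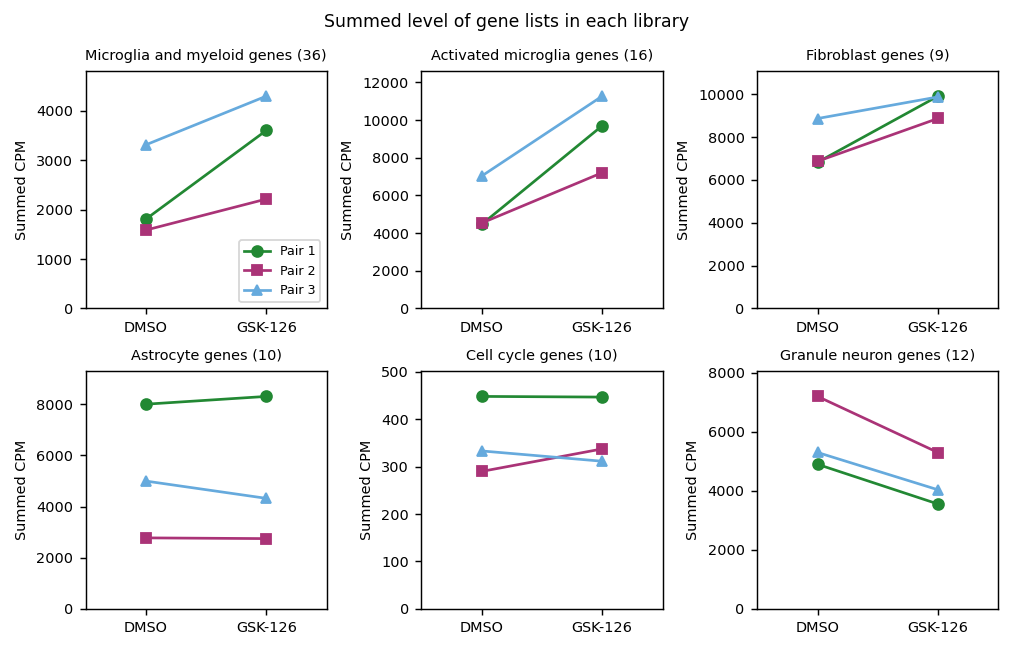
Summed CPM of 6 gene lists in each library, with DMSO and GSK-126 of the same replicate number joined by a line. The microglia and myeloid sum is higher with GSK-126 in all 3 pairs (ratios 2.00, 1.40 and 1.30), as are the activated microglia and fibroblast sums, and the granule neuron sum is lower in all 3.

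Markers of other cells moved with the treatment as well. The counts called below stand beside 2.23% of all genes called higher and 1.42% called lower with the block. The summed level of 12 granule neuron genes was 4896, 7199 and 5298 CPM with DMSO and 3550, 5294 and 4032 CPM with GSK-126. Of the 12, 5 were called lower with the block, among them Slc17a7 (-2.16) and Gabra6 (-1.42), genes of mature granule neurons. The log2 fold changes of the 12 ran from -2.16 to 0.36 with a median of -0.32. Of these values 3 were above 0, and 9 genes were lower and 1 higher in all 3 pairs. Of 7 endothelial and mural genes 3 were called higher (Flt1, Pdgfrb and Acta2). The log2 fold changes of the 7 ran from -0.30 to 1.33 with a median of 0.62, with 2 below 0 and 1 gene lower in all 3 pairs. The sum of that list ran from 482 to 751 CPM with DMSO and from 831 to 1034 CPM with GSK-126. Of 9 fibroblast genes 2 were called higher (Col1a1 and Igf2), with sums from 6824 to 8865 CPM with DMSO and from 8871 to 9911 CPM with GSK-126. The log2 fold changes of the 9 ran from -0.935 to 1.15 with a median of 0.24, with 1 below 0 and 1 gene lower in all 3 pairs. Of 10 oligodendrocyte lineage genes 1 was called higher, the progenitor proteoglycan Cspg4 at 0.89. Values of the 10 ran from -0.21 to 0.89 with a median of 0.17, and 4 were below 0. The part of these cell types in the values of the microglia and myeloid genes was not tested.

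In the lists that follow, 0 genes were called with the block, beside 2.23% of all genes called higher and 1.42% lower. The sum of 10 astrocyte genes ran from 2773 to 8003 CPM with DMSO and from 2745 to 8308 CPM with GSK-126, highest in replicate 1 of both groups, and 0 of 10 were called. Their log2 fold changes ran from -0.37 to 0.57 with a median of 0.02 (Gfap 0.17), with 2 genes higher and 3 lower in all 3 pairs. The sum of 10 cell cycle genes ran from 290 to 448 CPM with DMSO and from 311 to 447 CPM with GSK-126, and 0 of 9 were called, with log2 fold changes from -0.14 to 0.19 (Top2a 0.00). Border macrophage genes had 21.6 to 67.5 CPM with DMSO and 28.0 to 67.8 CPM with GSK-126, with Cd163 at 0 to 13 counts. Of 6 that passed the filter 0 were called, their log2 fold changes ran from 0.15 (Ms4a7) to 1.22 with a median of 0.40, and 4 were higher in all 3 pairs. Genes of monocytes, neutrophils and lymphocytes summed to 2.30 to 7.31 CPM in the 6 libraries, of which Plac8 alone passed the filter (-0.37, not called), with Ly6c2, Ngp, Cd3e and Ms4a1 among those at 0 counts. In red cell genes the sum was at most 0.908 CPM, and the globin genes Hba-a1, Hba-a2, Hbb-bs and Hbb-bt were at 0. For these zeros too, and for that of Kif11, RNA and annotation or counting cannot be told apart. They do not show that blood cells were absent.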

How the data were processed

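Poly(A) RNA of CGN cultures was sequenced as paired-end reads, in 6 libraries. The deposited values are unnormalized counts of reads per gene in 1 table for each library, which the authors made, per the study's methods and processing notes, with Trimmomatic 0.38, STAR 2.7.2b (mm10) and HTSeq over exons of a GENCODE GRCm38 annotation. The 5 summary entries of each table, which name no gene, were left out, and 39.1 to 41.6% of reads were assigned to genes. Totals over genes ran from 8058760 to 12047837 counts. Floors and intervals cover counting error only. Coordinates and exon lengths came from GENCODE (GRCm38), and promoters from RefSeq.

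Genes were filtered with filterByExpr, scaled with TMM and tested with the quasi-likelihood test of edgeR 4.0.16 (R 4.3.3), with treatment as the only term and Benjamini-Hochberg adjustment over all 16343 genes at a threshold of 0.05. DESeq2 1.42.0, limma 3.58.1, other size factors, no filter, the replicate block and leaving out each library were alternatives. CPM are TMM-scaled, and pair ratios use a prior count of 2. The scripts were tested on simulated data, with 100 genes changed 1.5-fold and 100 changed 3-fold. With the block, 49 and 99 of these were called, and 13 unchanged genes were called as well. Without the block, 0 and 74 were called, and 0 unchanged genes. Deviations from group means correlated by 0.35 to 0.52 between libraries of the same number and by -0.41 to -0.01 between different numbers, and the methods define a culture replicate as neurons of pooled litters, so the numbers were taken to pair the libraries. The deviations within a group sum to 0 for each gene, so these ranges are not independent of each other. The pairing was read from the same counts that the fit with the block used. No 2 libraries agreed within sampling noise.

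The genes and lists were chosen with earlier results of these data known. Counts per library are given for genes called in either fit, for the most abundant gene of each role and for the 6 smallest p-values with the block. Those of P2ry12, P2ry13, Tyrobp, Cd300a and Aif1 were added after their values were seen. From other lists the called genes (at most 6) are named, and some list genes are not reported here.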

Additional observations from a re-analysis of the deposited data

How the results depend on the processing

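Without the replicate block, 0 genes were called, 85 with no filter (1 of the 36) and 48 with DESeq2. The block moved the count of all genes called to 597, to 574 with DESeq2 size factors, to 1136 with no filter and to 659 in DESeq2, and to 704, 178 and 359 without replicate number 1, 2 and 3. For the microglia and myeloid genes called higher, the counts were 14, 13, 20 and 13, and 9, 5 and 13 without number 1, 2 and 3, while 0 were called lower in any fit. For the other cell lists they were 29, 29, 43 and 30, and 30, 14 and 26, with 4 in DESeq2 without the block and 7 with no filter and no block. Leaving out 1 library moved the median log2 fold change of the genes between 0.35 and 0.99, and the ratio of summed CPM between 1.30 and 1.99, the highest being without DMSO replicate 3. Csf1r ran from -0.02 (without DMSO replicate 2; -0.01 without GSK-126 replicate 1) to 0.37, and Spi1 from -0.25 (without GSK-126 replicate 3) to 1.25. The cause of these moves was not tested. Below 20 CPM 1 of 13 genes was called, beside 0.84% of all genes at that level, and the part of depth in this was not tested. With n = 3 pairs a call that missed the threshold does not show that a gene was unchanged.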
